A study of Mus musculus with 8 samples.

Results

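Levels of 53 mitosis and cytokinesis genes were compared between C2C12 myoblasts, a mouse muscle precursor line whose dividing cells can fuse into multinucleate fibres, with and without knockdown of Atad2. The genes were taken by symbol from a list set for this work, and all 53 were among the 35976 genes of the deposited table. The 4 Atad2 shRNA libraries are from cells that received a short hairpin RNA (shRNA) against Atad2, the gene of a bromodomain protein of the AAA ATPase family. The 4 control libraries are from cells that received a non-targeting shRNA. Both groups were the same line, and RNA was taken 48 h after transfection. Whether each library had its own culture is not stated, so every p-value here measures the spread between libraries alone, and that spread may be technical.

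A cell enters mitosis when CDK1 bound to a B-type cyclin becomes active, condenses its chromosomes, builds a spindle and attaches each chromosome to it through the kinetochore. The spindle checkpoint holds back the anaphase-promoting complex (APC/C), a ubiquitin ligase, until all chromosomes are attached. The APC/C then marks securin and cyclin B for destruction, separase cuts cohesin, and a ring organised by the central spindle divides the cell. Many of these genes are transcribed together late in the cell cycle, through a promoter element called CHR (cell cycle genes homology region) that binds the MuvB complex and its partners B-MYB and FOXM1.

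Levels are log2(normalized count + 1), and log2 fold changes are Atad2 shRNA over control shRNA, ± SE, from a fit across all genes. A change was called at a limma adjusted p under 0.05. Reads counted to genes came to 50.3 to 72.3 Mreads (mega-reads) in the Atad2 shRNA libraries and 61.4 to 73 Mreads in the control libraries. Every member had between 864 and 54225 reads per library. Atad2 (chromosome 15, 58094044 to 58135525, GRCm38) stood at 11.87, 11.77, 12.05 and 12.05 in the Atad2 shRNA libraries, against 14.66, 14.74, 14.67 and 14.61 in the control libraries (log2 fold change -2.73 ± 0.05, limma adjusted p = 4.58e-20). For Atad2 alone, an exact permutation of the libraries (two-sided) gave p = 0.0286, the smallest possible with 4 against 4. Atad2 shRNA replicate 3, the shallowest library, stood apart from the other 7 on the second principal component, which held 8.29% of the variance, and the counts of members without it are given below. In bulk RNA, fewer cells in mitosis and less RNA per cell cannot be told apart.

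The labelled cell type was checked on markers. All 6 myoblast markers passed the filter on low values, 3 of them higher and 3 lower, where 60.4% of all genes tested were called. Myf5 changed by -1.28 ± 0.10, Cdh15 by -0.96 ± 0.05 and Chrna1 by -0.25 ± 0.04. Des changed by 0.38 ± 0.03, Myod1 by 0.25 ± 0.04 and Itga7 by 0.10 ± 0.04. Their summed normalized count was 56815 to 62271 in the Atad2 shRNA libraries and 52585 to 55809 in the control libraries. Des, with the highest level of the 6 (means of 15.12 and 14.74), weighed most in that sum. Among 5 markers of differentiated muscle, 3 were tested and 2 were higher, against 30.8% of all genes tested. Myog had 73 to 158 reads in the Atad2 shRNA libraries and 23 to 39 in the control libraries. Myh3 had 113 to 235 reads in the Atad2 shRNA libraries and 1 to 9 in the control libraries. Acta1 differed by -0.09 ± 0.12, overlapped and did not pass (limma adjusted p = 0.535). The 5 markers summed to 637 to 942 in the Atad2 shRNA libraries and 440 to 615 in the control libraries. Acta1, with the highest level of the 5 (means of 8.88 and 8.97), weighed most in those sums. The fibroblast and adipogenic markers summed to 5008 to 5158 in the Atad2 shRNA libraries and 2068 to 2156 in the control libraries. Pdgfra was higher by 1.31 ± 0.04 and Col1a1 by 0.67 ± 0.16, with Adipoq at 0 reads throughout. The 3 haematopoietic markers summed to 504 to 634 in the Atad2 shRNA libraries and 217 to 266 in the control libraries. Of these, Cd68 was higher by 1.17 ± 0.11, Ptprc had at most 4 reads in any library and Adgre1 had 0. Endothelial markers summed to 7 to 14 in the Atad2 shRNA libraries and 1 to 6 in the control libraries. Epithelial markers summed to 3 to 15 in the Atad2 shRNA libraries and 47 to 80 in the control libraries, with Epcam at 0. Among the latter, Cdh1 changed by -3.25 ± 0.47. The part of these differences in the results on mitosis genes was not tested.

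Promoters are shown first, because the CHR is known from many genes of this kind; the members themselves were taken by symbol, not by this element. RefSeq promoters on GRCm38.p6, 250 bases before to 50 bases after the start of transcription, matched 44 of the 53 members with 47 promoters. The 9 other members were Ccna2, Cdc25c, Spc24, Aurkb, Incenp, Kif20a, Tpx2, Smc4 and Foxm1. The CHR letters TTTGAA, searched on both strands, were in 35 of these 47 promoters (74.5%), against 17.9% of all 32851 promoters and 11.4% of the 7707 promoters of tested genes in the members' range of levels. CCAAT, the letters of the box bound by NF-Y, was also in 35 of 47 (74.5%), against 37.4% of all promoters and 36.8% of those in that range. Neither motif contains the other, and a match of one can share only an end base with a match of the other. Both were present in 30 of 47 (63.8%), against 6.95% of all promoters and 4.72% of those in that range. CHR matches of the members had their first base at a median of 5 bases before the start, and CCAAT matches at a median of 67 bases before it.

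The promoters printed below run 5′ to 3′ on the strand of the gene, from 150 bases before to 30 bases after the start. Capitals mark TTTGAA or its reverse complement and CCAAT or its reverse complement. The 4 cytokinesis genes, all lower with the Atad2 shRNA, come first.
Prc1 (chr7:80294301-80294480, + strand): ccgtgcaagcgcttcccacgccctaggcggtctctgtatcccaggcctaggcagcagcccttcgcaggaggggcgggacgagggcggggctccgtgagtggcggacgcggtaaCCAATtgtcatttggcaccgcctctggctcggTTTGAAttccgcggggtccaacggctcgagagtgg
Anln (chr9:22389177-22389356, - strand): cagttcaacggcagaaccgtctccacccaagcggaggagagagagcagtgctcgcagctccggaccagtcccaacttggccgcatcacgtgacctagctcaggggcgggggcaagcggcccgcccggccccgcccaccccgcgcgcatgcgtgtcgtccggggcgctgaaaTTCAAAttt
Ect2 (chr3:27153849-27154028, - strand): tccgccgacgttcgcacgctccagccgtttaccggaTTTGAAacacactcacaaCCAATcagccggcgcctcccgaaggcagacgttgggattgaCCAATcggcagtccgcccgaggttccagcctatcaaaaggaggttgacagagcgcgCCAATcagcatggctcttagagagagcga
Racgap1 (chr15:99651627-99651806, - strand): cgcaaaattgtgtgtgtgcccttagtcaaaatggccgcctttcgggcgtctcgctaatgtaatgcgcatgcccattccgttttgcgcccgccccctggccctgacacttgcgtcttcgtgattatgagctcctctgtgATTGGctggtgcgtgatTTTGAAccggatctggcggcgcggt
Of the members that were higher, Ube2c, Espl1 and Cdk1 are shown.
Ube2c (chr2:164769779-164769958, + strand): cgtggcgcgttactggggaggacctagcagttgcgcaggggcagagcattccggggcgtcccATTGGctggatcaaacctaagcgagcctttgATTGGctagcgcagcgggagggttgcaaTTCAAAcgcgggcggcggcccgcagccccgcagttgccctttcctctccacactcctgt
Espl1 (chr15:102296143-102296322, + strand): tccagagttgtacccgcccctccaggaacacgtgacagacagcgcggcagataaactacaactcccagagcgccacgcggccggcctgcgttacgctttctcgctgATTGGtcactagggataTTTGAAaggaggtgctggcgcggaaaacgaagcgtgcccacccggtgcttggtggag
Cdk1 (chr10:69352883-69353062, - strand): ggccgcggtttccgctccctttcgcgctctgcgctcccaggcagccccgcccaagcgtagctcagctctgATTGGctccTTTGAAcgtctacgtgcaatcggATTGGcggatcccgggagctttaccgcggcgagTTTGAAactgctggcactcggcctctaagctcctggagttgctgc
The B-type cyclins, called in opposite directions with the values as deposited, complete the set.
Ccnb1 (chr13:100786457-100786636, - strand): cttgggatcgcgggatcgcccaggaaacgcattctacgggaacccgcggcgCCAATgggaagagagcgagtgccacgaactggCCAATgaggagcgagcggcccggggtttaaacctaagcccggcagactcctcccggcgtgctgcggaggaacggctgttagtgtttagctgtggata
Ccnb2 (chr9:70421525-70421704, - strand): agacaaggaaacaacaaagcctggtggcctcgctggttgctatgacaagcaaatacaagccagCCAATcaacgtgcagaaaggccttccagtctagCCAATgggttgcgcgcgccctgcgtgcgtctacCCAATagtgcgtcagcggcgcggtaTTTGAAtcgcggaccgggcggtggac
In these windows TTTGAA or its complement was in each promoter except that of Ccnb1, and CCAAT or its complement in each except that of Anln. Over the whole 300 bases, CHR letters were in the promoters of 14 of 16 matched members called higher, 6 of 9 called lower and 12 of 19 that did not pass. The letters stood in front of genes of each kind of call. A match describes these letters and is not a measured binding site.

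Changes of the 53 genes were small and went both ways. With the values as deposited, 19 members were higher in the Atad2 shRNA libraries, 11 were lower and 23 did not pass the threshold. These shares, 35.8% and 20.8%, stand beside 30.8% higher and 29.6% lower among all 14703 genes tested (60.4% in either direction). Members were strongly expressed, with mean levels of 10.23 to 15.55, and among the 7706 tested genes in that range 46.1% were higher and 23.2% lower (69.3% in either direction). The groups did not overlap for 27 members (50.9%), against 53.5% of all genes tested and 62.2% of those in that range. The median log2 fold change was 0.04 over the members, -0.01 over all genes tested and 0.08 over genes in the range. No member changed 2-fold, while 12.2% of all genes tested and 2.17% of those in the range differed by at least that much. The share of members called was near that of all genes and below that of genes at like levels, and what follows is about which members moved.

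**Figure D1:**
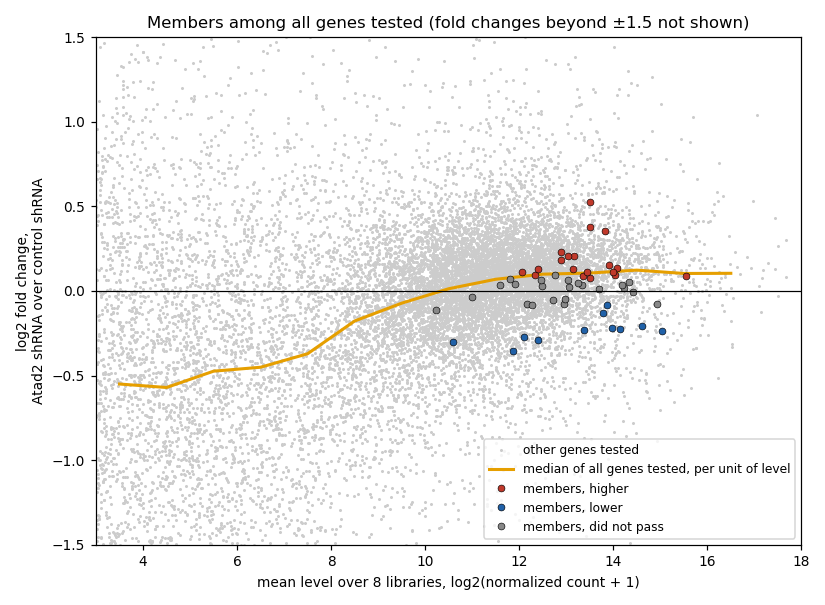
Log2 fold change (Atad2 shRNA over control shRNA) against mean level over 8 libraries for all genes tested (grey points), points beyond the axis not shown, with the 53 members coloured by call and the median of all genes per unit of level as a line. The members sit at levels of 10.23 to 15.55, between -0.36 and 0.53, and the median of all genes at those levels lies slightly above 0 (0.08 over the whole range).

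The direction of small changes depended on how the libraries were scaled. Quantile normalization and cyclic loess, which align genes of like level, left 7 members higher and 22 lower, each with a median of -0.06 over the members, against 0.01 and 0.00 over all genes. Quantile normalization called 28.8% of all genes higher and 27.6% lower, and 33.8% and 31.9% of those in the members' range of levels. Cyclic loess called 27.9% of all genes higher and 28.2% lower, and 33.1% and 32.3% of those in the range. Members are therefore described by whether the call was the same under 4 scalings, which were the values as deposited, median centring, quantile normalization and cyclic loess. By that measure 7 members were higher (13.2%) and 11 lower (20.8%), against 23.7% and 22.8% of all genes tested and 32.9% and 23.1% of those in the members' range. The 7 higher were Cdk1, Cdc25b, Bub3, Ube2c, Espl1, Aurkb and Kif2c. The 11 lower were Ccnb2, Cdc25c, Pttg1, Cenpe, Kif20a, Aspm, Prc1, Anln, Ect2, Racgap1 and Ncaph. Of these 18 members, 17 also kept their calls when any library was left out, under no filter or a stricter one, with another offset or variance model, with library weights, with the replicate number as a block and by limma-voom on recovered reads, and Cenpe did not. Without Atad2 shRNA replicate 3, 16 members were higher and 11 lower.

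**Figure D2:**
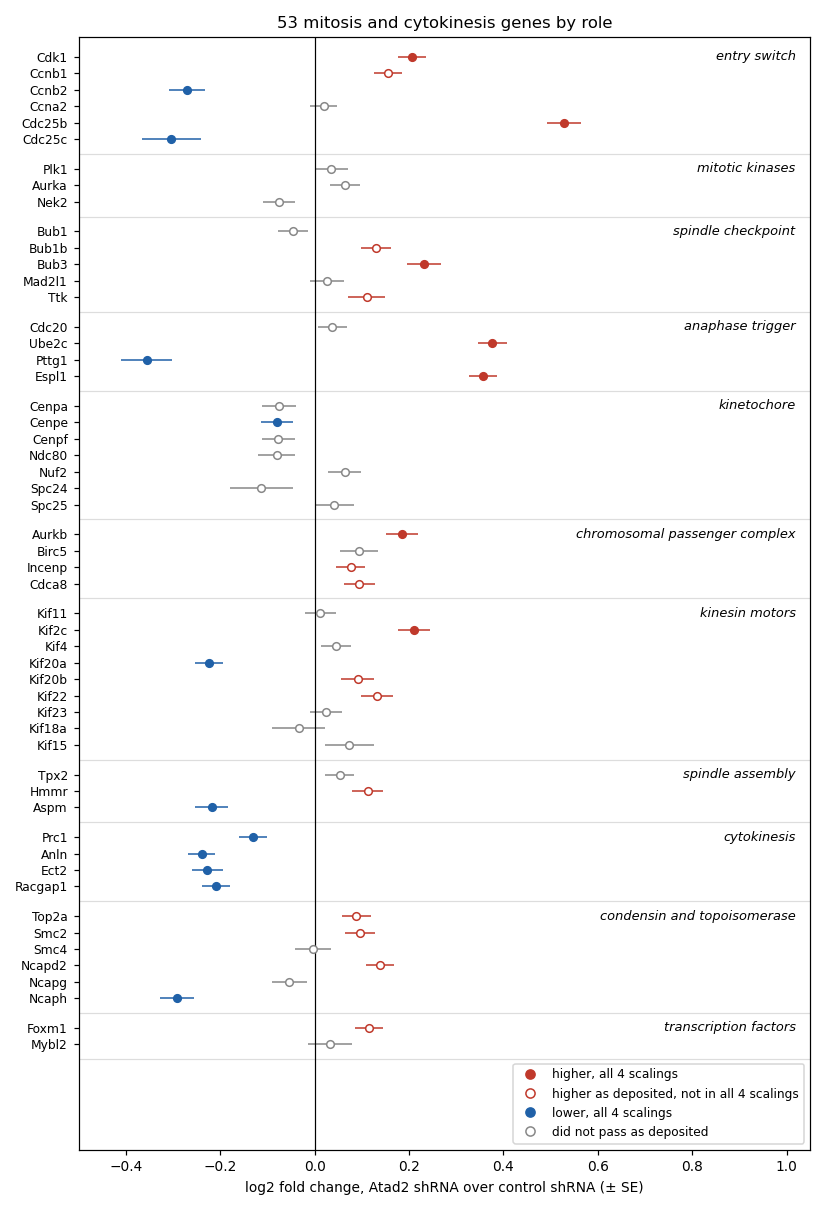
Log2 fold change ± SE (Atad2 shRNA over control shRNA, 4 libraries each) of the 53 members, by role. Filled points mark the 7 higher and 11 lower members called alike under 4 scalings, open red points the members called higher as deposited but not under all of them, and grey points those that did not pass; the 4 cytokinesis genes all lie below 0.

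In the cytokinesis group all 4 members were lower as deposited, under each of the 4 scalings and without any one library. Of all genes tested, 29.6% were lower as deposited and 22.8% under all 4 scalings. The role groups were set with earlier results of these data known, so nothing is read from that contrast. Members with a part in cytokinesis also stood in other role groups. As deposited, Kif20a was lower, Aurkb, Incenp and Cdca8 were higher, and Kif23, Birc5 and Plk1 did not pass. Anln encodes anillin, a scaffold of the contractile ring. Its levels were 14.90, 14.89, 14.93 and 14.93 in the Atad2 shRNA libraries, against 15.19, 15.17, 15.14 and 15.11 in the control libraries (log2 fold change -0.24 ± 0.03, limma adjusted p = 5.14e-07). Racgap1, the GTPase-activating subunit of centralspindlin, stood at 14.55, 14.50, 14.50 and 14.47 in the Atad2 shRNA libraries, against 14.71, 14.72, 14.73 and 14.69 in the control libraries (log2 fold change -0.21 ± 0.03, limma adjusted p = 2.7e-06). Ect2, the exchange factor that activates RhoA at the division plane, stood at 13.26, 13.23, 13.29 and 13.26 in the Atad2 shRNA libraries, against 13.47, 13.57, 13.48 and 13.45 in the control libraries (log2 fold change -0.23 ± 0.03, limma adjusted p = 4.84e-06). In each of these 3 genes every Atad2 shRNA library lay below every control library. Prc1, which bundles the microtubules of the central spindle, had the smallest change, with 13.70, 13.68, 13.73 and 13.72 with the Atad2 shRNA and 13.84, 13.86, 13.83 and 13.83 with the control shRNA (log2 fold change -0.13 ± 0.03, limma adjusted p = 0.00056), again without overlap. The group's median log2 fold change was -0.22 as deposited and -0.33 with quantile normalization and with cyclic loess. Relative to the mean of all 53 members in the same library, the mean of these 4 genes stood 0.94 to 0.97 higher in the Atad2 shRNA libraries and 1.16 to 1.19 higher in the control libraries, a difference between groups of -0.22 on the log2 scale.

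A further list headed cytokinesis, of genes outside the 53, was looked at after these values were seen. A part in cytokinesis was not checked for each gene on it. Of 10 listed, 4 were higher (40%), 5 lower (50%) and 1 did not pass, against 30.8% higher and 29.6% lower among all genes tested. Cit, which encodes citron kinase of the midbody, changed by -0.20 ± 0.03 and Rhoa, the GTPase that drives the contractile ring, by -0.16 ± 0.03 (limma adjusted p = 2.46e-05 and 7.77e-05). Depdc1a changed by -0.53 ± 0.06, Cdca3 by -0.15 ± 0.04 and Depdc1b by -0.16 ± 0.06. These 5 were lower under all 4 scalings. Arhgap11a, whose product inactivates RhoA, differed by 0.16 ± 0.04, Cdca2 by 0.13 ± 0.04, Shcbp1 by 0.11 ± 0.04 and Troap by 0.10 ± 0.04, and with quantile normalization or cyclic loess none of the 10 was called higher and 6 were lower. Cep55, of the abscission machinery, differed by -0.09 ± 0.04 and did not pass (limma adjusted p = 0.0512). Without Atad2 shRNA replicate 1 or 3 or control replicate 1 it did (limma adjusted p = 0.0452, 0.0227 and 0.0462). The calls of Depdc1b, Shcbp1 and Troap were each lost without some single libraries: for Depdc1b these were Atad2 shRNA replicates 2 and 3 and control replicate 1 (limma adjusted p = 0.0507, 0.0895 and 0.109). For Shcbp1 they were Atad2 shRNA replicates 3 and 4 and control replicates 3 and 4 (limma adjusted p from 0.0562 to 0.0857), and for Troap Atad2 shRNA replicates 1 and 3 and control replicates 1 and 4 (limma adjusted p from 0.056 to 0.123).

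In the switch that drives entry into mitosis, paralogs moved apart. Cdc25b, a phosphatase that removes the inhibitory phosphates of CDK1, changed the most of all 53 members. It stood at 13.76, 13.78, 13.72 and 13.86 in the Atad2 shRNA libraries, against 13.30, 13.28, 13.24 and 13.18 in the control libraries (log2 fold change 0.53 ± 0.04, limma adjusted p = 6.8e-11), or 1.44-fold higher. Its paralog Cdc25c stood at 10.34, 10.48, 10.35 and 10.57 in the Atad2 shRNA libraries, against 10.62, 10.72, 10.81 and 10.80 in the control libraries (log2 fold change -0.30 ± 0.06, limma adjusted p = 0.000283). For both phosphatases the groups were fully separated, in opposite directions. Cdk1, the mitotic kinase itself, stood at 13.28, 13.25, 13.26 and 13.26 in the Atad2 shRNA libraries, against 13.07, 13.08, 13.02 and 13.05 in the control libraries (log2 fold change 0.21 ± 0.03, limma adjusted p = 6.59e-06). The Cdk1 values of the Atad2 shRNA libraries lay within 0.03 of each other and above every control.

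Among the cyclins, Ccnb2 was lower, at 11.90, 11.93, 11.95 and 12.05 in the Atad2 shRNA libraries, against 12.20, 12.25, 12.20 and 12.26 in the control libraries (log2 fold change -0.27 ± 0.04, limma adjusted p = 5.37e-06). Ccnb1, the main B-type cyclin, stood at 14.05, 14.00, 13.98 and 13.96 in the Atad2 shRNA libraries, against 13.81, 13.86, 13.87 and 13.83 in the control libraries (log2 fold change 0.16 ± 0.03, limma adjusted p = 0.000147), also without overlap. That call was lost with quantile normalization and cyclic loess, where the Ccnb1 difference was 0.05 and 0.04 (limma adjusted p = 0.201 with cyclic loess). Ccnb1 has 5 pseudogenes in GENCODE M21 that match its transcripts at 95% identity or more over at least 200 bases. How reads that match several of these were counted is not given. Ccna2, the cyclin A of S phase and G2, stood at 14.25, 14.20, 14.27 and 14.27 with the Atad2 shRNA and 14.24, 14.25, 14.20 and 14.22 with the control shRNA, with overlapping values (log2 fold change 0.02 ± 0.03, limma adjusted p = 0.593).

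**Figure D3:**
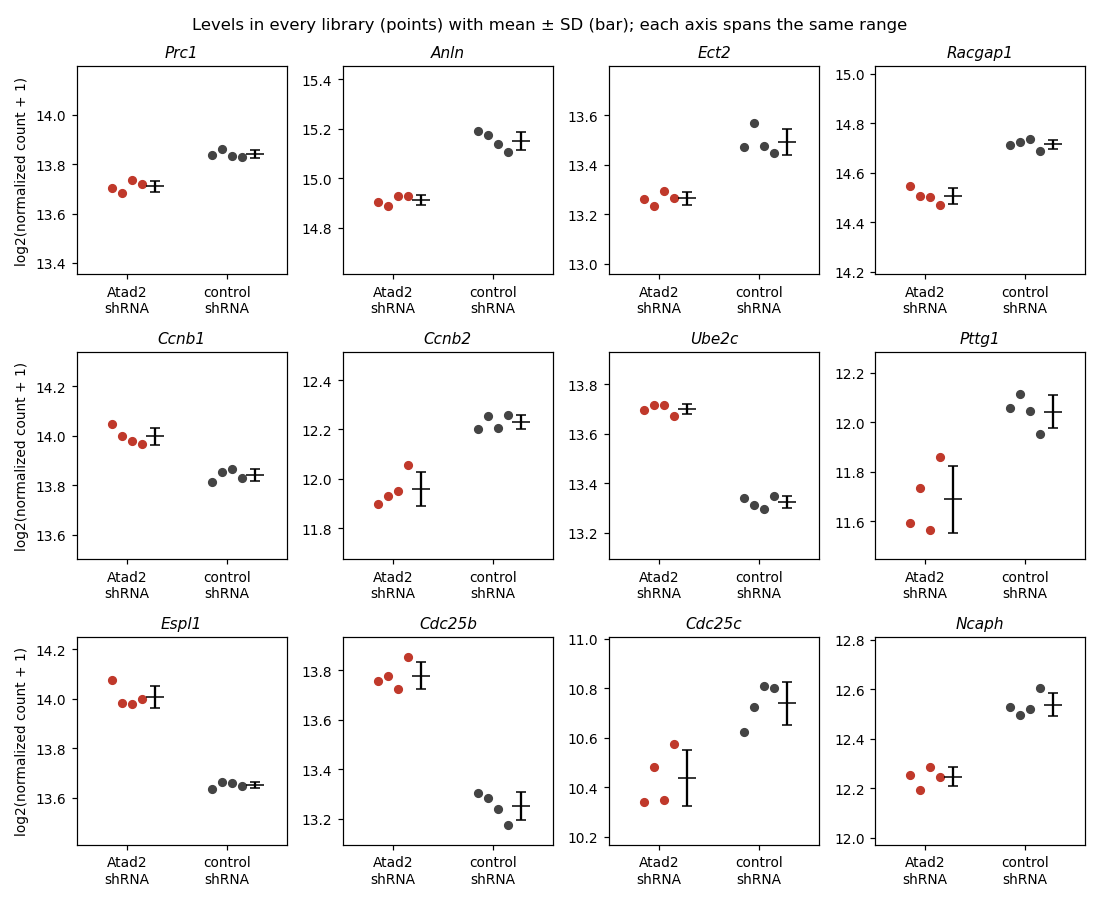
Level, log2(normalized count + 1), of 12 members in each Atad2 shRNA library (red points, left) and control library (dark points, right), with mean ± SD beside them; every panel spans the same range. In all 12 the groups do not overlap; Prc1, Anln, Ect2, Racgap1, Ccnb2, Pttg1, Cdc25c and Ncaph are lower and Ccnb1, Ube2c, Espl1 and Cdc25b higher with the Atad2 shRNA, the Ccnb1 call being lost with quantile normalization and cyclic loess.

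The genes that trigger anaphase also split. Ube2c, the ubiquitin-conjugating enzyme that works with the APC/C, stood at 13.70, 13.72, 13.72 and 13.67 in the Atad2 shRNA libraries, against 13.34, 13.31, 13.30 and 13.35 in the control libraries (log2 fold change 0.38 ± 0.03, limma adjusted p = 7.41e-10). Espl1, which encodes separase, the protease that cuts cohesin, stood at 14.07, 13.98, 13.98 and 14.00 in the Atad2 shRNA libraries, against 13.64, 13.66, 13.66 and 13.65 in the control libraries (log2 fold change 0.36 ± 0.03, limma adjusted p = 2.68e-09). Pttg1, which encodes securin, the inhibitor of separase, stood at 11.59, 11.73, 11.57 and 11.86 in the Atad2 shRNA libraries, against 12.06, 12.11, 12.05 and 11.95 in the control libraries (log2 fold change -0.36 ± 0.05, limma adjusted p = 1.01e-05). The separase gene was higher in every Atad2 shRNA library than in any control and the gene of its inhibitor lower, and both calls held under all 4 scalings. Of the 53 members, Pttg1 also varied the most between the Atad2 shRNA libraries, over a range from 11.57 to 11.86. Cdc20, the activator of the APC/C in mitosis, stood at 14.23, 14.20, 14.17 and 14.18 with the Atad2 shRNA and 14.19, 14.14, 14.17 and 14.12 with the control shRNA, with overlap and without passing (log2 fold change 0.04 ± 0.03, limma adjusted p = 0.282). Per kilobase of all its annotated exons, Cdc20 had the highest value of the 53. It stood at 10000 normalized counts per kb in the Atad2 shRNA libraries and 9780 in the control libraries. The rank depends on the exon length annotated for each gene.

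Of the 5 spindle checkpoint genes, 3 were higher and 2 did not pass, and 1 of the 3, Bub3, was higher under all 4 scalings. Of all genes tested, 30.8% were higher as deposited and 23.7% under all 4 scalings. At the members' levels these shares were 46.1% and 32.9%. Bub3, which brings the BUB kinases to the kinetochore, stood at 13.00, 13.04, 12.96 and 12.98 in the Atad2 shRNA libraries, against 12.80, 12.76, 12.68 and 12.82 in the control libraries (log2 fold change 0.23 ± 0.04, limma adjusted p = 1.11e-05), without overlap. Bub1b encodes BUBR1, a part of the complex that inhibits the APC/C. It stood at 13.24, 13.24, 13.19 and 13.17 in the Atad2 shRNA libraries, against 13.09, 13.08, 13.09 and 13.07 in the control libraries (log2 fold change 0.13 ± 0.03, limma adjusted p = 0.00115), and the difference was 0.03 with cyclic loess, where it did not pass. Ttk, which encodes the kinase MPS1, differed by 0.11 ± 0.04 (limma adjusted p = 0.019). The Ttk call was lost without Atad2 shRNA replicate 3 or control replicate 4 (limma adjusted p = 0.0559 and 0.0631) and with quantile normalization and cyclic loess. Bub1 differed by -0.05 ± 0.03 and did not pass (limma adjusted p = 0.221), with a lower call under quantile normalization and cyclic loess. Mad2l1, the gene of the checkpoint protein MAD2, stood at 12.55, 12.47, 12.49 and 12.44 with the Atad2 shRNA and 12.45, 12.51, 12.47 and 12.43 with the control shRNA, where the groups overlapped (log2 fold change 0.03 ± 0.04, limma adjusted p = 0.53). The checkpoint group's mean relative to all members stood at -0.41 to -0.38 in the Atad2 shRNA libraries and -0.48 to -0.45 in the control libraries.

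Of 7 kinetochore genes, 1 was lower, none was higher and 6 did not pass, against 29.6% lower and 30.8% higher among all genes tested. The log2 fold changes of the 7 ran from -0.11 to 0.06. Cenpe, the kinesin that carries chromosomes to the spindle equator, stood at 13.88, 13.81, 13.86 and 13.74 in the Atad2 shRNA libraries, against 13.86, 13.96, 13.90 and 13.89 in the control libraries (log2 fold change -0.08 ± 0.03, limma adjusted p = 0.0492), with overlap. That Cenpe call was lost without Atad2 shRNA replicate 2 or 4 or control replicate 2, 3 or 4 (limma adjusted p from 0.0687 to 0.158), and with no filter, no variance trend or library weights. Cenpa, the histone H3 variant that marks the centromere, averaged 12.13 ± 0.01 in the Atad2 shRNA libraries and 12.21 ± 0.04 in the control libraries (SD, n = 4 each), without overlap and without passing (limma adjusted p = 0.0745). Cenpf and Ndc80 differed by -0.08 ± 0.04 and -0.08 ± 0.04 and did not pass. Cenpf did pass without Atad2 shRNA replicate 4 or control replicate 4 (limma adjusted p = 0.0431 and 0.00604). Within the NDC80 complex, which holds the microtubule, Nuf2 differed by 0.06 ± 0.04, Spc24 by -0.11 ± 0.07 and Spc25 by 0.04 ± 0.04, and none passed. The levels of Spc25 were 11.93, 11.88, 11.94 and 12.02 with the Atad2 shRNA and 11.88, 11.97, 11.89 and 11.87 with the control shRNA. With quantile normalization or cyclic loess, 4 of the 7 kinetochore genes were lower (Cenpa, Cenpe, Cenpf and Ndc80) and none higher. Of all genes tested, 27.6% were lower and 28.8% higher with quantile normalization, and 28.2% and 27.9% with cyclic loess. The mean of the 7 relative to all members was -0.64 to -0.60 in the Atad2 shRNA libraries and -0.59 to -0.52 in the control libraries. By that measure the libraries also did not overlap for the anaphase trigger genes and the chromosomal passenger complex. They overlapped for the entry switch, mitotic kinases, kinesin motors, spindle assembly, condensin and topoisomerase, and transcription factors. The role groups were set with earlier results of these data known, so nothing is read from these means.

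The chromosomal passenger complex corrects wrong attachments and then acts in cytokinesis. Of the 4 genes of the complex 3 were higher, against 30.8% of all genes tested and 46.1% of those at the members' levels. Only 1 of these 3, Aurkb, was higher under all 4 scalings, against 23.7% and 32.9%. Aurkb, its kinase, stood at 12.99, 12.92, 12.98 and 12.99 in the Atad2 shRNA libraries, against 12.78, 12.79, 12.74 and 12.83 in the control libraries (log2 fold change 0.19 ± 0.03, limma adjusted p = 6.39e-05), without overlap. Cdca8 (borealin) stood at 12.41, 12.42, 12.38 and 12.36 with the Atad2 shRNA and 12.30, 12.31, 12.28 and 12.30 with the control shRNA, without overlap (log2 fold change 0.09 ± 0.03, limma adjusted p = 0.019). Its difference was 0.00 with quantile normalization and with cyclic loess, and the call was lost without Atad2 shRNA replicate 2 (limma adjusted p = 0.0563). Incenp, the scaffold, differed by 0.08 ± 0.03 (limma adjusted p = 0.0401), with a sign that turned under quantile normalization and cyclic loess (-0.02 and -0.03). Incenp also lost its call without Atad2 shRNA replicate 1 or 3 or control replicate 1, 2 or 4 (limma adjusted p from 0.066 to 0.139). Birc5 (survivin) stood at 12.79, 12.70, 12.83 and 12.91 with the Atad2 shRNA and 12.78, 12.68, 12.68 and 12.72 with the control shRNA, overlapping, and did not pass (log2 fold change 0.09 ± 0.04, limma adjusted p = 0.0517), while it did without Atad2 shRNA replicate 2 or control replicate 1 (limma adjusted p = 0.0106 and 0.0298).

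Among the other mitotic kinases none of 3 passed, against 60.4% of all genes tested that were called in either direction. Plk1, a kinase active from entry to cytokinesis, stood at 13.36, 13.36, 13.32 and 13.36 with the Atad2 shRNA and 13.42, 13.29, 13.26 and 13.29 with the control shRNA (log2 fold change 0.04 ± 0.04, limma adjusted p = 0.398), where control replicate 1 was the highest of all 8. Aurka, the spindle pole kinase, differed by 0.06 ± 0.03 and Nek2, a centrosome kinase, by -0.08 ± 0.03 (limma adjusted p = 0.0942 and 0.0535). Without Atad2 shRNA replicate 1, Nek2 was lower (limma adjusted p = 0.0204), and it was called lower with quantile normalization and cyclic loess too.

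Of 9 kinesin motor genes, 3 were higher, 1 lower and 5 did not pass. Over all genes tested 30.8% were higher and 29.6% lower. Kif2c, which encodes the microtubule depolymerase MCAK, stood at 13.19, 13.13, 13.09 and 13.15 in the Atad2 shRNA libraries, against 12.98, 12.88, 12.94 and 12.91 in the control libraries (log2 fold change 0.21 ± 0.03, limma adjusted p = 1.8e-05). Kif20a, the motor that carries the passenger complex to the central spindle, stood at 14.05, 14.01, 14.02 and 14.04 in the Atad2 shRNA libraries, against 14.29, 14.23, 14.27 and 14.23 in the control libraries (log2 fold change -0.22 ± 0.03, limma adjusted p = 1.39e-06). Neither overlapped between groups, and both calls held under all 4 scalings. Exons of Kif20a share 29.3% of their bases with Cdc23 on the opposite strand, which had 2093 to 3672 reads against at least 12899 for Kif20a. The library kit marks strand, but the strand setting of the counting is not given. Whether reads there were counted, dropped or given to the other gene is therefore not known. Kif22, a chromosome-arm motor, stood at 12.48, 12.41, 12.47 and 12.47 with the Atad2 shRNA and 12.34, 12.32, 12.31 and 12.33 with the control shRNA (log2 fold change 0.13 ± 0.03, limma adjusted p = 0.00192), and Kif20b differed by 0.09 ± 0.04 (limma adjusted p = 0.029). With quantile normalization and cyclic loess Kif22 did not pass and Kif20b was at -0.01 and -0.02. Kif20b also lost its call without Atad2 shRNA replicate 1 or 3 or control replicate 1 or 4 (limma adjusted p from 0.0629 to 0.114).

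None of the other 5 motors passed. Kif11, whose tetramers push the spindle poles apart, stood at 13.74, 13.67, 13.73 and 13.70 with the Atad2 shRNA and 13.65, 13.75, 13.74 and 13.65 with the control shRNA, with overlap (log2 fold change 0.01 ± 0.03, limma adjusted p = 0.758). Kif4, Kif23, Kif18a and Kif15 had log2 fold changes between -0.03 ± 0.06 and 0.07 ± 0.05 and did not pass. Without Atad2 shRNA replicate 2, Kif15 did pass (limma adjusted p = 0.0324). Kif11 and Kif23 were called lower with quantile normalization and cyclic loess, and Kif4 with quantile normalization. Kif23 is the motor subunit of centralspindlin, the partner of Racgap1, and its difference of 0.02 ± 0.03 stood beside -0.21 ± 0.03 for Racgap1.

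The 3 spindle assembly genes were 1 higher, 1 lower and 1 that did not pass. Shares over all genes tested were 30.8% higher and 29.6% lower. Aspm, a spindle pole protein, stood at 13.84, 13.80, 13.87 and 13.95 in the Atad2 shRNA libraries, against 14.07, 14.13, 14.10 and 14.01 in the control libraries (log2 fold change -0.22 ± 0.04, limma adjusted p = 1.97e-05), without overlap. Hmmr, which binds spindle microtubules and hyaluronan, stood at 13.52, 13.43, 13.54 and 13.49 with the Atad2 shRNA and 13.38, 13.40, 13.40 and 13.35 with the control shRNA (log2 fold change 0.11 ± 0.03, limma adjusted p = 0.00506) and did not pass with cyclic loess, where its difference was 0.01. Tpx2, which activates Aurora A on the spindle, stood at 14.39, 14.35, 14.39 and 14.30 with the Atad2 shRNA and 14.31, 14.26, 14.35 and 14.31 with the control shRNA, overlapping (log2 fold change 0.05 ± 0.03, limma adjusted p = 0.143), and passed without Atad2 shRNA replicate 4 (limma adjusted p = 0.0449).

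Subunits of condensin, the complex that compacts mitotic chromosomes, did not move together. Ncaph, the kleisin that closes the ring of condensin I, stood at 12.26, 12.19, 12.29 and 12.25 in the Atad2 shRNA libraries, against 12.53, 12.50, 12.52 and 12.60 in the control libraries (log2 fold change -0.29 ± 0.04, limma adjusted p = 6.38e-07), lower in each Atad2 shRNA library than in any control, and the call held under all 4 scalings. Ncapd2, a HEAT-repeat subunit of the same complex, stood at 14.14, 14.10, 14.14 and 14.17 in the Atad2 shRNA libraries, against 14.02, 14.02, 13.98 and 13.98 in the control libraries (log2 fold change 0.14 ± 0.03, limma adjusted p = 0.00032). Smc2, an ATPase of the core, stood at 14.09, 14.10, 14.10 and 14.06 with the Atad2 shRNA and 13.96, 14.05, 14.02 and 13.94 with the control shRNA (log2 fold change 0.10 ± 0.03, limma adjusted p = 0.0116). Both were fully separated as deposited, and neither passed with quantile normalization or cyclic loess, where Smc2 was at -0.02 and -0.02. Smc4, its ATPase partner, stood at 14.40, 14.41, 14.46 and 14.42 with the Atad2 shRNA and 14.37, 14.51, 14.50 and 14.32 with the control shRNA (log2 fold change -0.00 ± 0.04, limma adjusted p = 0.948), with the control libraries spread around the Atad2 shRNA ones. Ncapg differed by -0.05 ± 0.04 without passing, and both Smc4 and Ncapg were called lower with quantile normalization and cyclic loess. Top2a, the topoisomerase that untangles sister chromatids, differed by 0.09 ± 0.03 (limma adjusted p = 0.0139), with a sign that turned under quantile normalization (-0.04) and cyclic loess (-0.03).

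Foxm1 and Mybl2 encode the factors that work with MuvB at the CHR. Foxm1 stood at 14.10, 14.04, 14.05 and 14.04 in the Atad2 shRNA libraries, against 13.98, 13.92, 13.94 and 13.93 in the control libraries (log2 fold change 0.11 ± 0.03, limma adjusted p = 0.00222), without overlap, and at a difference of 0.00 with cyclic loess (limma adjusted p = 0.971). Mybl2, the gene of B-MYB, stood at 11.73, 11.62, 11.60 and 11.52 with the Atad2 shRNA and 11.68, 11.57, 11.54 and 11.55 with the control shRNA, with overlap (log2 fold change 0.03 ± 0.05, limma adjusted p = 0.567). Neither factor was called under all 4 scalings.

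Members of the same complex, family or step were set against each other within each library, which does not depend on the size factor. The 13 pairs were chosen after the values were seen, and the differences are given as a description with no test. In 12 of 13 pairs the groups did not overlap (92.3%), against 803 of all 1378 pairs of the 53 members (58.3%), and since the 13 were picked on their values nothing is read from that difference. Cdc25b exceeded Cdc25c by 3.28 to 3.42 on the log2 scale in the Atad2 shRNA libraries and by 2.37 to 2.68 in the control libraries. Espl1 exceeded Pttg1 by 2.14 to 2.48 in the Atad2 shRNA libraries and by 1.55 to 1.69 in the control libraries. The difference between groups was 0.83 for the phosphatases and 0.71 for separase over securin, and 0.74 and 0.68 with cyclic loess. Ccnb1 over Ccnb2 was 1.91 to 2.15 in the Atad2 shRNA libraries and 1.57 to 1.66 in the control libraries.

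In condensin, Ncapd2 over Ncaph was 1.86 to 1.92 in the Atad2 shRNA libraries and 1.38 to 1.52 in the control libraries. For the motors, Kif2c minus Kif20a was -0.93 to -0.87 in the Atad2 shRNA libraries and -1.35 to -1.31 in the control libraries. These 3 pairs each shifted by 0.43 as deposited, and by 0.40 to 0.45 with cyclic loess. Within centralspindlin, Kif23 minus Racgap1 was -1.46 to -1.41 in the Atad2 shRNA libraries and -1.71 to -1.63 in the control libraries. The smallest shifts were for Smc2 over Smc4 (0.10), Aurka over Aurkb (-0.12) and Ndc80 over Nuf2 (-0.14). Spc25 over Spc24 was the pair that overlapped.

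**Figure D4:**
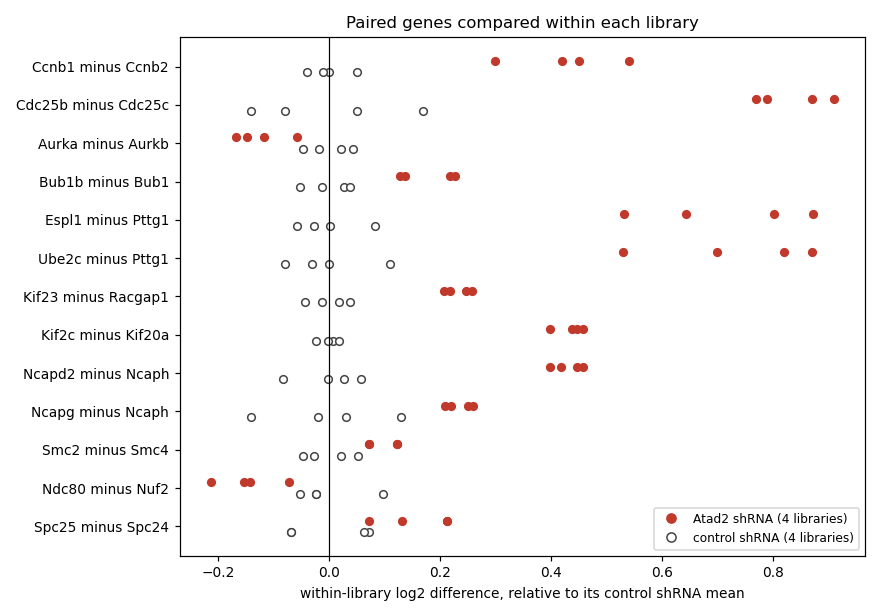
Within-library log2 difference between paired genes of one complex, family or step, first minus second, shown relative to the mean of the control libraries, for 4 Atad2 shRNA libraries (filled red) and 4 control libraries (open). In 12 of 13 pairs the groups do not overlap; the shifts are 0.83 for Cdc25b over Cdc25c, 0.71 for Espl1 over Pttg1 and -0.14 for Ndc80 over Nuf2.

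Levels of different genes can be set side by side per length. Per kilobase of exon in GENCODE M21, after Cdc20 came Top2a with 5490 ± 112 normalized counts per kb in the Atad2 shRNA libraries and 5160 ± 112 in the control libraries (SD, n = 4 each). Ube2c followed with 5120 ± 76.7 in the Atad2 shRNA libraries and 3940 ± 64 in the control libraries. Ccna2, Plk1, Tpx2 and Smc4 lay between 4210 and 4760 in the Atad2 shRNA libraries and between 4230 and 4690 in the control libraries. They were below Ube2c in the Atad2 shRNA libraries and above it in the control libraries. So were Kif20a (3860 in the Atad2 shRNA libraries, 4510 in the control libraries) and Anln (3400 and 4020). The lowest was Kif18a, with 207 ± 13 in the Atad2 shRNA libraries and 212 ± 13.5 in the control libraries. Next came Cdc25c, with 282 ± 22.2 in the Atad2 shRNA libraries and 348 ± 20.6 in the control libraries, and Kif15, with 332 ± 25.3 in the Atad2 shRNA libraries and 316 ± 16.7 in the control libraries, in opposite order in the groups. Replicates lay close together, with a median SD over the members of 0.037 in the Atad2 shRNA libraries and 0.039 in the control libraries on the log2 scale.

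**Figure D5:**
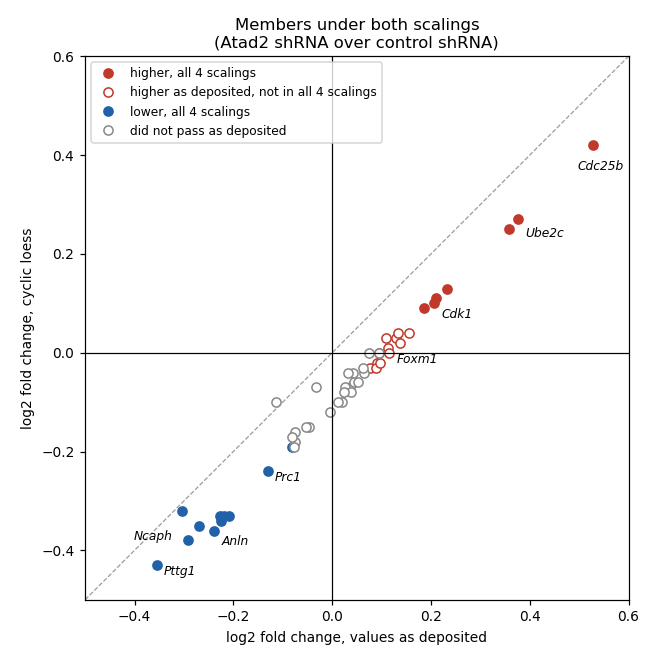
Log2 fold change (Atad2 shRNA over control shRNA) of the 53 members with the values as deposited (x axis) and after cyclic loess (y axis); the dashed line marks equal values. Nearly all points lie below that line; 7 members are called higher and 11 lower under all 4 scalings (filled), and open red points, such as Foxm1, lie near 0 after cyclic loess.

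A wider list held 125 other mitosis genes, all of them tested. As deposited 46 were higher, 28 lower and 51 did not pass (36.8% and 22.4%, with a median of 0.04), and under all 4 scalings 19 were higher and 25 lower (15.2% and 20%). Among all genes tested 30.8% were higher and 29.6% lower as deposited, and 23.7% and 22.8% under all 4 scalings. At the members' levels these shares were 46.1% and 23.2% as deposited, and 32.9% and 23.1% under all 4 scalings. Some wider genes, such as Cenpw at 8.03 and Mki67 at 16.27, lay outside those levels. With quantile normalization or cyclic loess 20 of the wider genes were higher and 40 lower. Zwint, of the outer kinetochore, was higher by 0.55 ± 0.04 and Kif2a, a microtubule depolymerase related to MCAK, by 0.53 ± 0.03 (limma adjusted p = 9.38e-11 and 3.36e-11). Tfdp1, the partner of E2F factors, and Rbl2, the pocket protein p130 of the repressive DREAM complex, were higher by 0.35 ± 0.03 and 0.41 ± 0.04. Psrc1, a microtubule-binding spindle protein, changed by -0.98 ± 0.10, Anapc13, a subunit of the APC/C, by -0.78 ± 0.08, Mad1l1, which anchors MAD2 at kinetochores, by -0.48 ± 0.05 and Ckap2, another spindle protein, by -0.35 ± 0.04. The calls of these 8 genes held under all 4 scalings. Mki67, the proliferation marker Ki-67, averaged 16.28 ± 0.04 in the Atad2 shRNA libraries and 16.26 ± 0.07 in the control libraries (SD, n = 4 each), overlapped and did not pass (log2 fold change 0.02 ± 0.04, limma adjusted p = 0.66). It was called lower with quantile normalization (-0.12) and cyclic loess (-0.10).

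The counts by role stand beside 30.8% higher and 29.6% lower among all genes tested as deposited, and 27.9% and 28.2% with cyclic loess. For genes at the members' levels the shares were 46.1% and 23.2% as deposited, and 33.1% and 32.3% with cyclic loess. Of 15 cohesin genes 8 were higher and 2 lower, and 1 and 2 with cyclic loess. Of 17 APC/C genes 8 were higher and 3 lower, and 5 and 5 with cyclic loess. Of 31 further kinetochore and checkpoint genes 9 were higher and 8 lower, and 6 and 10 with cyclic loess. Of 23 spindle, motor and centrosome genes 6 were higher and 6 lower as deposited, and 2 and 11 with cyclic loess. The MuvB and DREAM genes had 6 of 9 higher and 1 lower, and 4 and 0 with cyclic loess. Of 15 entry genes 4 were higher and 2 lower, and 2 and 3 with cyclic loess. Of 5 genes of condensin II and the chromosome surface 1 was higher and 1 lower, and 0 and 3 with cyclic loess.

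Some members share sequence with other genes of GENCODE M21. Exons of 17 of the 53 overlap exons of another gene, and 14 have a stretch of at least 200 bases that matches another gene's transcript at 95% identity or more. Besides Kif20a, the called members with the widest overlap were Ube2c, with 22.8% of its exon bases in common with Tnnc2, and Cdc25c, with 12.7% in common with Gm3550. Tnnc2 had 0 to 33 reads per library. Prc1 shares 11.1% of its exon bases with Rccd1, which had 205 to 482 reads per library against at least 10601 for Prc1. How the counting treated reads shared between such genes is not given, and the values of these members are uncertain to that extent.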

How the data were processed

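Total RNA of 8 libraries was sequenced from 4 Atad2 shRNA and 4 control samples. The values the authors deposited are on a log2 scale, log2(normalized count + 1) with 1 scaling factor for each library. This form was read from the values: low values, converted back, were whole multiples of 1 step per library for 100% of them, within a tolerance of 0.1 reads. The submitters' processing notes name HTSeq 0.13.5, SAMtools 1.1, bcl2fastq 2.20, DESeq2 with no version, and build mm10. For the aligner, annotation and strand setting no source used here gives a name. Reads were recovered with that step for depth and read ranges. Depth, as reads counted to genes, was 50.3 to 73 Mreads per library, and its precision covers counting error only.

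Genes with a mean level above 3 were fitted with limma 3.58.1 in R 4.3.3 (lmFit and eBayes with trend, two-sided, Benjamini-Hochberg over 14703 genes). Tables, the permutation test and plots were made with Python 3.11.15, pandas 2.3.3, NumPy 2.4.6, SciPy 1.17.1 and matplotlib 3.10.9, and copies of members were sought with blastn 2.17.0. The members, lists and alternatives were chosen with earlier results of these data known. In each of 11 role groups, levels in all libraries are given for up to 2 called members in each direction by adjusted p, and for 1 uncalled member with the smallest change; Ccnb1, Ect2 and Prc1 were added after their values were seen. From the wider list, up to 4 called genes in each direction by adjusted p and Mki67 are named, and all 10 genes of its cytokinesis list were added after their values were seen. Older symbols were used for 4 of its 125 genes. Same-numbered libraries did not deviate together (correlations of 0.0625, -0.0483, 0.116 and -0.0179), so numbers were not taken as pairs.

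The fit was checked on simulated counts of 14895 genes in the same 8 libraries. Of 50 genes each, changes of 0.1, 0.25, 0.5 and 1 on the log2 scale were recovered for 14%, 96%, 100% and 100%, in genes at the members' levels, and 3.12% of the genes called were unchanged. Far fewer genes changed in the simulation than were called in the data, so these shares do not carry over to the calls reported here.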

Additional observations from a re-analysis of the deposited data

Results flagged for a closer look

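In 5 of 106 groups of 4 libraries (53 members in each treatment), a library lay far from the other 3 on the log2 scale, by Dixon's test at its 95% critical value. Chance gives about 1 in 20 groups, and 4.72% were found here. For Plk1, Atad2 shRNA replicate 3 was lowest, at 13.32, with the other 3 at 13.36. For Aurkb, Atad2 shRNA replicate 2 was lowest, at 12.92, with the others between 12.98 and 12.99. For Ncapg, Atad2 shRNA replicate 3 was highest, at 12.74, against 12.66 to 12.67. For Foxm1, Atad2 shRNA replicate 1 was highest, at 14.10, against 14.04 to 14.05. For Kif18a, control replicate 1 was lowest, at 10.88, against 11.05 to 11.08. Each of these groups spanned between 0.04 and 0.20 in all.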

How the results depend on the processing

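With quantile normalization and with cyclic loess the mitosis members had 7 higher and 22 lower calls, against 19 and 11 as deposited, and the wider genes had 20 higher and 40 lower under each, against 46 and 28. With at least a 2-fold change required, 370 of all genes were higher and 1266 lower, and 0 members and 0 wider genes in either direction. Among named genes called as deposited or under the other scaling, those that turned sign with quantile normalization were Ccna2 (-0.0856), Incenp (-0.015), Kif11 (-0.0983), Kif4 (-0.0731), Kif20b (-0.00752), Kif23 (-0.0808), Top2a (-0.0368), Smc2 (-0.0215), Foxm1 (-9.38e-05) and Mki67 (-0.12). With cyclic loess they were Ccna2 (-0.0962), Cdc20 (-0.077), Incenp (-0.0313), Kif11 (-0.0979), Kif20b (-0.0152), Kif23 (-0.0784), Top2a (-0.0296), Smc2 (-0.0175) and Mki67 (-0.0987). Members called under neither also turned sign: Plk1, Aurka, Mad2l1, Nuf2, Spc25, Birc5, Tpx2 and Mybl2 with both scalings, Cdc20 with quantile normalization, and Kif4 and Kif15 with cyclic loess. These scalings align genes of like level, and the tested genes in the members' range had a median of 0.08 as deposited, 0.01 with quantile normalization and 0.00 with cyclic loess. Leaving out each library in turn gave 16 to 20 members higher and 10 to 12 lower, 38 to 45 wider genes higher and 22 to 29 lower, 4254 to 4573 of all genes higher and 4039 to 4401 lower, and -2.78 to -2.68 for Atad2. With the replicate number as a block, 20 members were higher and 13 lower, 48 and 28 of the wider genes, and 4562 and 4379 of all genes; Atad2 was at -2.73. Of the 30 members called as deposited, 5 lost the call without 1 library: Ttk, Cenpe, Incenp, Cdca8 and Kif20b. No member was near a count of 0: each had at least 864 reads in every library.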
